A study of Mus musculus with 6 samples.

Results

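The genes described here make cholesterol, sense it, move it through the lysosome and store it, or respond to the liver X receptors (LXR) that drive its export. They were chosen by name, as every gene probe of the arrays whose gene name was 1 of 41 listed symbols. Of these, 40 had at least 1 probe (74 probes in all, out of 56605 gene probes) among 37325 genes of the array. No probe carried the name Acat2, and the single probe of Npc1l1, the sterol uptake channel of the small bowel, was at background level on all 6 arrays (not marked by the scanner software as well above it). The other 39 were tested among 19090 genes, and all 39 were well above background on all 6 arrays. They were 17 synthesis enzymes, 5 sensing genes, 4 uptake, transfer and storage genes, 9 LXR and efflux genes and 4 lipogenic genes.

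The tissue was colon with tumours from male C57BL/6 mice, bought at 6 to 8 weeks of age, with colitis-associated cancer (CAC). All mice had received the carcinogen azoxymethane (AOM, 10 μg/g) and 2% dextran sulfate sodium (DSS) in drinking water, which injures the colon lining. The treated group, labelled Rgnanomedicine (Test), received RG@M-γ-CD by mouth at 30 μg/g, which carried 10 μg/g of regorafenib (RG), a multikinase inhibitor, inside a mannose-modified γ-cyclodextrin. Control mice received phosphate-buffered saline (PBS). Treatment ran for 21 days and was followed by 14 days of observation. Each group had 3 mice with 1 one-colour array each, here named RG 1 to RG 3 and PBS 1 to PBS 3, and neither the free drug nor the empty carrier was on these arrays. The mice were wild type with chemically induced tumours, and each array held whole tissue, so fewer cells of a type and less RNA per cell cannot be told apart.

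Cells build cholesterol from acetyl-CoA through the mevalonate pathway, which runs from HMG-CoA over isoprenoids and squalene to lanosterol and then to cholesterol. When sterols in the endoplasmic reticulum are low, SCAP escorts the SREBP transcription factors to the Golgi, where they are cleaved and go on to switch on the synthesis and uptake genes, and INSIG proteins hold them back when sterols are plentiful. When sterols are in excess, oxysterols activate the LXRs, which switch on exporters such as ABCA1 and ABCG1, a strong response in macrophages that have taken up lipid, and ABCG5 and ABCG8, which return sterols to the gut lumen.

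SREBP and LXR act through the promoters of these genes, so a few promoters are printed before the values. RefSeq windows of 300 bases on GRCm38.p6 (250 before the transcription start and 50 after it) were matched for 33 of the 41 genes, in 45 windows. No entry was found for Sqle, Stard4, Abcg1, Fdps, Scd2, Fdft1, Scd1 and Npc1. The letters searched, on both strands, were TCACNCCAC (the classical sterol regulatory element, SRE), CCAAT and GGGCGG (a GC box), which bind partners of SREBP, AGGTCA (a nuclear receptor recognition sequence), and DR4, the LXR element taken here as AGGTCA repeated with 4 bases between. Each DR4 match also counts as a match of AGGTCA. Among 32851 windows of all genes, 1.24% held the SRE, 37.4% CCAAT, 35.7% the GC box, 16.3% AGGTCA and 0.0152% the DR4. Of the 18 synthesis windows, 14 held CCAAT, 15 the GC box, 4 AGGTCA and 1 the SRE. Of the 12 LXR and efflux windows, 4 held CCAAT, 3 the GC box and none of them the SRE, AGGTCA or the DR4. By gene, CCAAT was present for 14 of 15 synthesis genes and 4 of 8 LXR and efflux genes. The GC box was present for 14 of the 15 and 3 of the 8, and AGGTCA for 2 of the 15 and 0 of the 8. Some windows overlap, so 1 site can count more than once. Abcg5 and Abcg8 shared 1 CCAAT site, and 1 AGGTCA site lay in overlapping windows of Dhcr7. A match is only a match of letters and was not tested as a binding site. The stretches below are Hmgcs1, the entry enzyme and the only member window with the SRE (at -137 from the start), Mvk and Mvd as later mevalonate enzymes, and the gap that separates the divergent starts of Abcg5 and Abcg8. Hmgcs1 lies at chr13:119690101-119690350 on the plus strand, Mvk at chr5:114444019-114444268 on the plus strand, Mvd at chr8:122443423-122443672 on the minus strand and the gap at chr17:84683012-84683120, printed as the plus strand. Each runs 5′ to 3′ and the first 3 end at the base before the start. Capitals mark the SRE and CCAAT in either orientation (on the opposite strand CCAAT reads ATTGG and the SRE GTGGNGTGA).
Hmgcs1: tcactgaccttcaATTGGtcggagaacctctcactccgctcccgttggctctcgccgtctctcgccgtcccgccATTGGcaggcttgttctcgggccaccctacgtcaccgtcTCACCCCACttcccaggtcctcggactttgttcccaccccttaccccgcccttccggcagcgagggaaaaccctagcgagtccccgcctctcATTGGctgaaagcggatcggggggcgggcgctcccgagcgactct
Mvk: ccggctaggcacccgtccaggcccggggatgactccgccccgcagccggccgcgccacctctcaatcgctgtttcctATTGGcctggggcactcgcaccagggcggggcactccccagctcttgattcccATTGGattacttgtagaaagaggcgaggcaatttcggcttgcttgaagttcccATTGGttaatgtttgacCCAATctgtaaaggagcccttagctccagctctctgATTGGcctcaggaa
Mvd: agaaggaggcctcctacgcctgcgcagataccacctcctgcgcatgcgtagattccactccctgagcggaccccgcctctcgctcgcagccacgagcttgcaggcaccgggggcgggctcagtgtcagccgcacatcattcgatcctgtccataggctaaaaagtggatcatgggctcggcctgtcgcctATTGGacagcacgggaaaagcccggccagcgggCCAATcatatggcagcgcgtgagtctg
Abcg5 to Abcg8: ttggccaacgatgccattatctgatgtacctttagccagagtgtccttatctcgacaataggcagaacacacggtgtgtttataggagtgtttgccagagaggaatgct
The 109 bases between Abcg5 and Abcg8, which encode partners of one sterol pump, held none of the capitalised motifs, and their 300-base windows overlapped by 209 bases.

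Levels below are log2 intensities with the 75th percentile of each array's own gene probes set to 0, so a level compares 1 gene between arrays and not 1 gene with another. Between 49.6% and 55.2% of gene probes were well above background on an array. All 8 colon epithelium markers were measured, and their summed linear level was 724 to 967 on RG arrays and 672 to 1007 on PBS arrays. Smooth muscle markers summed to 97.6, 636 and 769 on RG 1 to RG 3 and to 220, 188 and 210 on the PBS arrays, so RG 2 and RG 3 stood apart. The study's own heat map of these arrays also sets them in another order than the labels, with RG 2, RG 3 and PBS 1 on the right and RG 1, PBS 2 and PBS 3 on the left. Every comparison is therefore given by the labels first, and then as right minus left with neither side called treated. Both comparisons share all 6 arrays, and the heat map was drawn from these values, so the second is a description.

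None of the 39 genes differed between RG@M-γ-CD and PBS after adjustment in limma (smallest adjusted p = 1.0), where 0% of all genes did. None had an unadjusted limma p below 0.05 either (smallest 0.156), against 0.864% of all genes higher and 1.33% lower. One member, Npc2, was higher on every RG array than on any PBS array, where 2.38% of all genes were, and 1 member, Fdft1, was lower on every RG array, where 2.19% were. Of the 39, 13 were higher and 26 lower on average, with a median of -0.044 on the log2 scale beside -0.012 for all genes. Of all 19090 genes, 9003 were higher and 10087 lower. The 95% interval of the difference lay within 2-fold for 34 of 39 and within 1.5-fold for 17. An exact permutation test of 3 arrays against 3 could not have gone below 0.10 for any single gene.

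**Figure D1:**
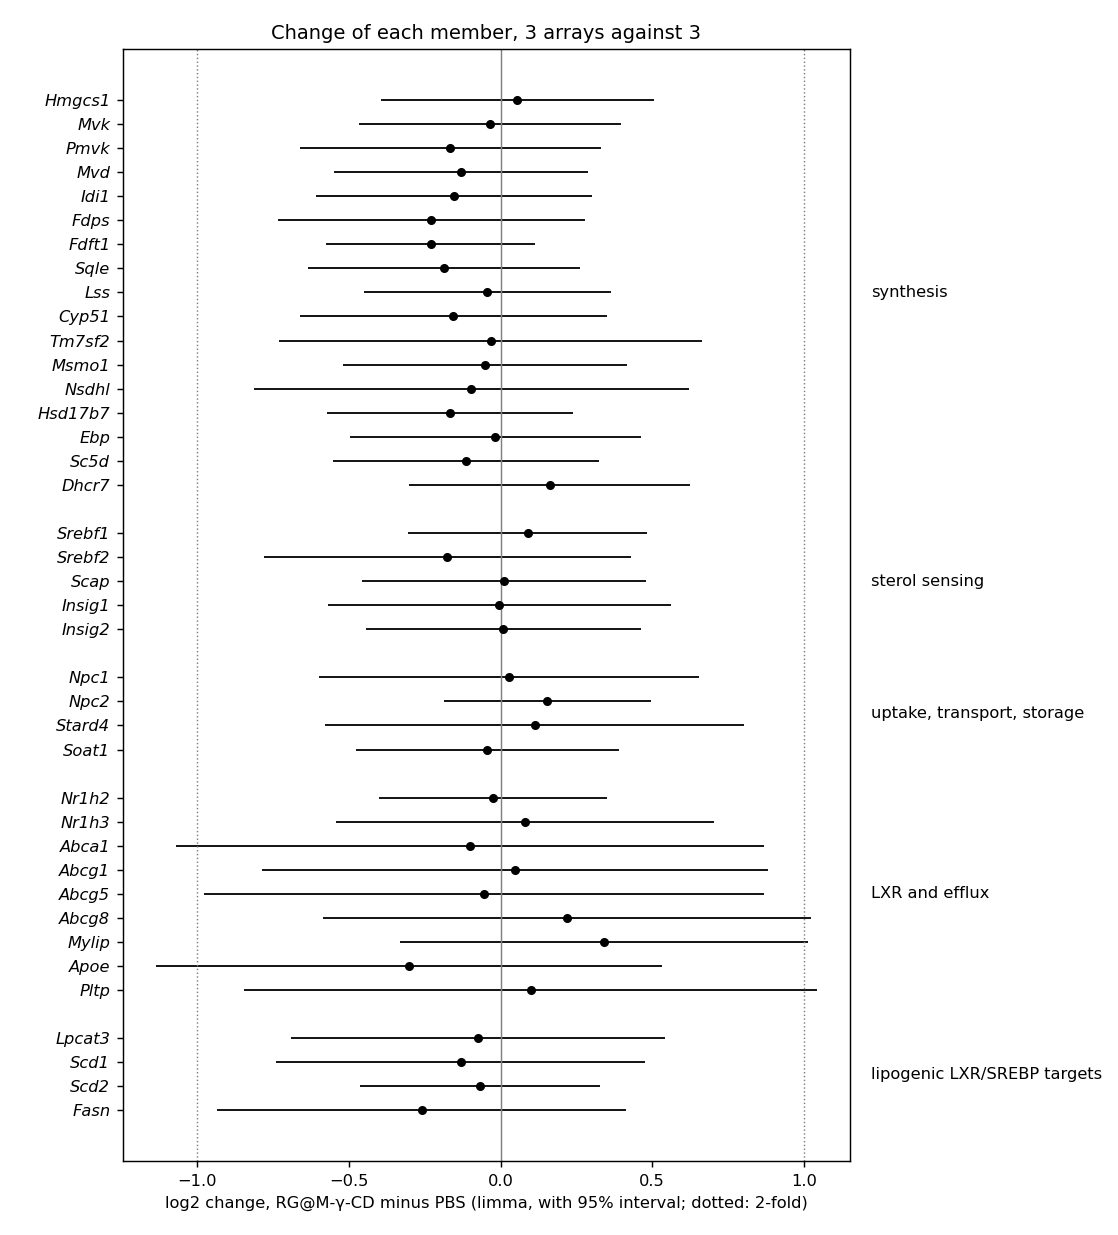
Mean log2 difference, RG@M-γ-CD minus PBS, on the horizontal axis for each of the 39 tested genes by role, with the 95% limma interval as the bar (3 arrays per group) and dotted lines at 2-fold. All bars cross 0, and only 5 of them, all in LXR and efflux genes, pass a dotted line, which Apoe does on the low side (-1.14) and Pltp on the high side (1.04).

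The 17 synthesis enzymes lay close to 0, with a median difference of -0.11, a range of -0.23 to 0.16, 15 lower and 2 higher, and no gene past the test. Every one of their intervals lay within 2-fold, and 9 within 1.5-fold. Hmgcs1, which condenses acetoacetyl-CoA to HMG-CoA, read 5.73, 6.05 and 6.04 on the RG arrays and 5.64, 5.98 and 6.04 on the PBS arrays. The groups overlapped almost wholly, and the difference was 0.06 (SE 0.19, 95% interval -0.39 to 0.51). Fdft1, the squalene synthase that commits isoprenoids to sterols, read 4.88, 4.75 and 4.78 on RG arrays and 4.94, 5.05 and 5.12 on PBS arrays. All RG arrays were below all PBS arrays, by a mean of -0.23 (SE 0.14), with an interval of -0.58 to 0.11 (adjusted p = 1.0 in limma). Its tested probe maps to chromosome 14 at 63765457 to 63765516 on the minus strand of mm9, and a second probe of the gene differed by -0.22. Sqle, the squalene epoxidase that sets the pace of the later pathway, read 4.24, 4.26 and 4.56 on RG arrays and 4.28, 4.65 and 4.69 on PBS arrays. The lowest PBS array lay among the RG arrays, and the difference was -0.19 (SE 0.19).

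Mvd, which decarboxylates mevalonate diphosphate, read 2.46, 2.18 and 2.27 on RG arrays and 2.21, 2.55 and 2.54 on PBS arrays, a difference of -0.13 (SE 0.17). RG 2, RG 3 and PBS 1 were the low arrays here. The same held for Sc5d, a late desaturase, at 3.35, 3.01 and 3.25 on RG arrays and 3.08, 3.42 and 3.46 on PBS arrays. Tm7sf2, a sterol reductase, read 4.61, 3.67 and 4.22 on RG arrays and 3.91, 4.53 and 4.16 on PBS arrays, and its difference by label was -0.03 (SE 0.29). RG 2 and PBS 1 were lowest and RG 1 and PBS 2 highest, so the spread within each group was far larger than the difference of the means. Of the remaining enzymes, Fdps, which makes farnesyl diphosphate, differed by -0.23, and Dhcr7, which reduces the last sterol precursor, by 0.16, the highest of the 17. Mvk, Pmvk, Idi1, Lss, Cyp51, Msmo1, Nsdhl, Hsd17b7 and Ebp lay between -0.17 and -0.02.

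The 5 sensing genes had a median difference of 0.0098, with 3 higher, 2 lower and no gene past the test. Srebf2, which encodes the SREBP that favours the cholesterol genes, read 1.97, 1.09 and 1.64 on RG arrays and 1.58, 1.86 and 1.77 on PBS arrays. RG 1 was highest and RG 2 lowest of all 6, and the difference was -0.18 (SE 0.25). Insig1, which retains SCAP and SREBP and is itself an SREBP target, read -1.08, -0.33 and -0.80 on RG arrays and -0.94, -0.70 and -0.56 on PBS arrays. The RG arrays spanned both ends, and the means differed by -0.0035. Srebf1 (0.09), Scap (0.01) and Insig2 (0.01) also had intervals within 2-fold.

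The uptake, transfer and storage genes had a median of 0.070, 3 higher and 1 lower, with no gene past the test. Npc2, the soluble lysosomal protein that hands cholesterol to NPC1, read 4.21, 4.24 and 4.20 on RG arrays and 4.02, 4.18 and 3.99 on PBS arrays. All RG arrays were above all PBS arrays, by a mean of 0.15 (SE 0.14, interval -0.19 to 0.50, adjusted p = 1.0 in limma), and its range of 0.25 over the 6 arrays was the narrowest of the 39 genes. Its probe maps to chromosome 12 at 86097947 to 86098006 on the minus strand of mm9. Npc1, the membrane partner that moves cholesterol out of the lysosome, read 3.05, 2.18 and 2.40 on RG arrays and 2.29, 2.58 and 2.67 on PBS arrays. RG 1 was the highest array and RG 2 the lowest, and the means differed by 0.03 (SE 0.26). Stard4, a cytosolic sterol carrier (0.11), and Soat1, which esterifies cholesterol for storage (-0.04), had intervals within 2-fold. Npc1l1 read -6.94, -6.46 and -6.56 on RG arrays and -6.80, -6.30 and -6.84 on PBS arrays, all of them not well above background, and was not tested.

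Of the 5 roles, the LXR and efflux genes had the widest spread. Over the 6 arrays their median range was 1.14 and their median within-group SD 0.50, against 0.48 and 0.21 for the synthesis enzymes and 0.72 and 0.28 for all genes. By label their median difference was 0.047, from -0.30 to 0.34, with 5 higher, 4 lower and no gene past the test, and the interval stayed within 2-fold for 4 of 9. Abca1, which loads cholesterol onto apolipoproteins, read 2.08, 0.49 and 1.02 on RG arrays and 1.55, 1.15 and 1.20 on PBS arrays. RG 1 was highest and RG 2 and RG 3 lowest, so the RG arrays enclosed the PBS arrays, and the difference was -0.10 (SE 0.40, interval -1.07 to 0.87). Abcg1, which exports cholesterol to lipoprotein particles, read 1.72, 0.58 and 0.61 on RG arrays and 1.22, 0.71 and 0.84 on PBS arrays, with the same arrays at the ends and a difference of 0.05 (SE 0.35). Apoe, the lipoprotein ligand that macrophages secrete in quantity, read 6.0, 4.90 and 4.71 on RG arrays and 5.61, 5.43 and 5.49 on PBS arrays. RG 1 was again highest and RG 2 and RG 3 lowest. The SD was 0.70 on RG arrays and 0.09 on PBS arrays, and the difference was -0.30 (SE 0.35, interval -1.14 to 0.53, adjusted p = 1.0 in limma). A second Apoe probe gave 3.44, 2.36 and 2.11 on RG arrays and 3.25, 2.78 and 3.03 on PBS arrays, the same order at the ends. The tested Apoe probe maps to chromosome 7 at 20281732 to 20281791 and that of Abca1 to chromosome 4 at 53043944 to 53044003, both on the minus strand of mm9. RG 2 and RG 3 lay below the other 4 arrays in 3 of the 9 genes, in 6 of all 39 and in 11.5% of all genes. Without RG 1, Apoe differed by -0.70 and had an unadjusted p below 0.05, as 11.9% of all genes did in that fit, and did not pass adjustment (adjusted p = 0.158 in limma).

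Of the 7 macrophage markers, 6 were lowest on the same arrays. All 7 (Adgre1, Cd68, Csf1r, Mrc1, Cd14, Itgam and Fcgr1) had a lower mean on RG arrays, with a median of -0.41, and none of them was at background throughout. Their summed linear level was 34.1, 31.3 and 24.1 on RG arrays and 38.4, 35.1 and 38.9 on PBS arrays, and RG 2 and RG 3 were the lowest 2 arrays for 6 of the 7. The exception, Itgam, read 1.94, 3.58 and 2.35 on RG arrays and 2.65, 2.97 and 2.82 on PBS arrays. For Itgam, RG 2 was the highest array and RG 1 the lowest. Cd14, the lipopolysaccharide co-receptor, had the smallest unadjusted limma p of the list, below 0.05 for a difference of -0.41, and did not pass adjustment. Cd68, a lysosomal protein of macrophages, read 1.94, 0.61 and 0.60 on RG arrays and 1.30, 1.22 and 1.29 on PBS arrays. The part of macrophage content in the levels of Abca1, Abcg1 and Apoe was not tested.

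**Figure D2:**
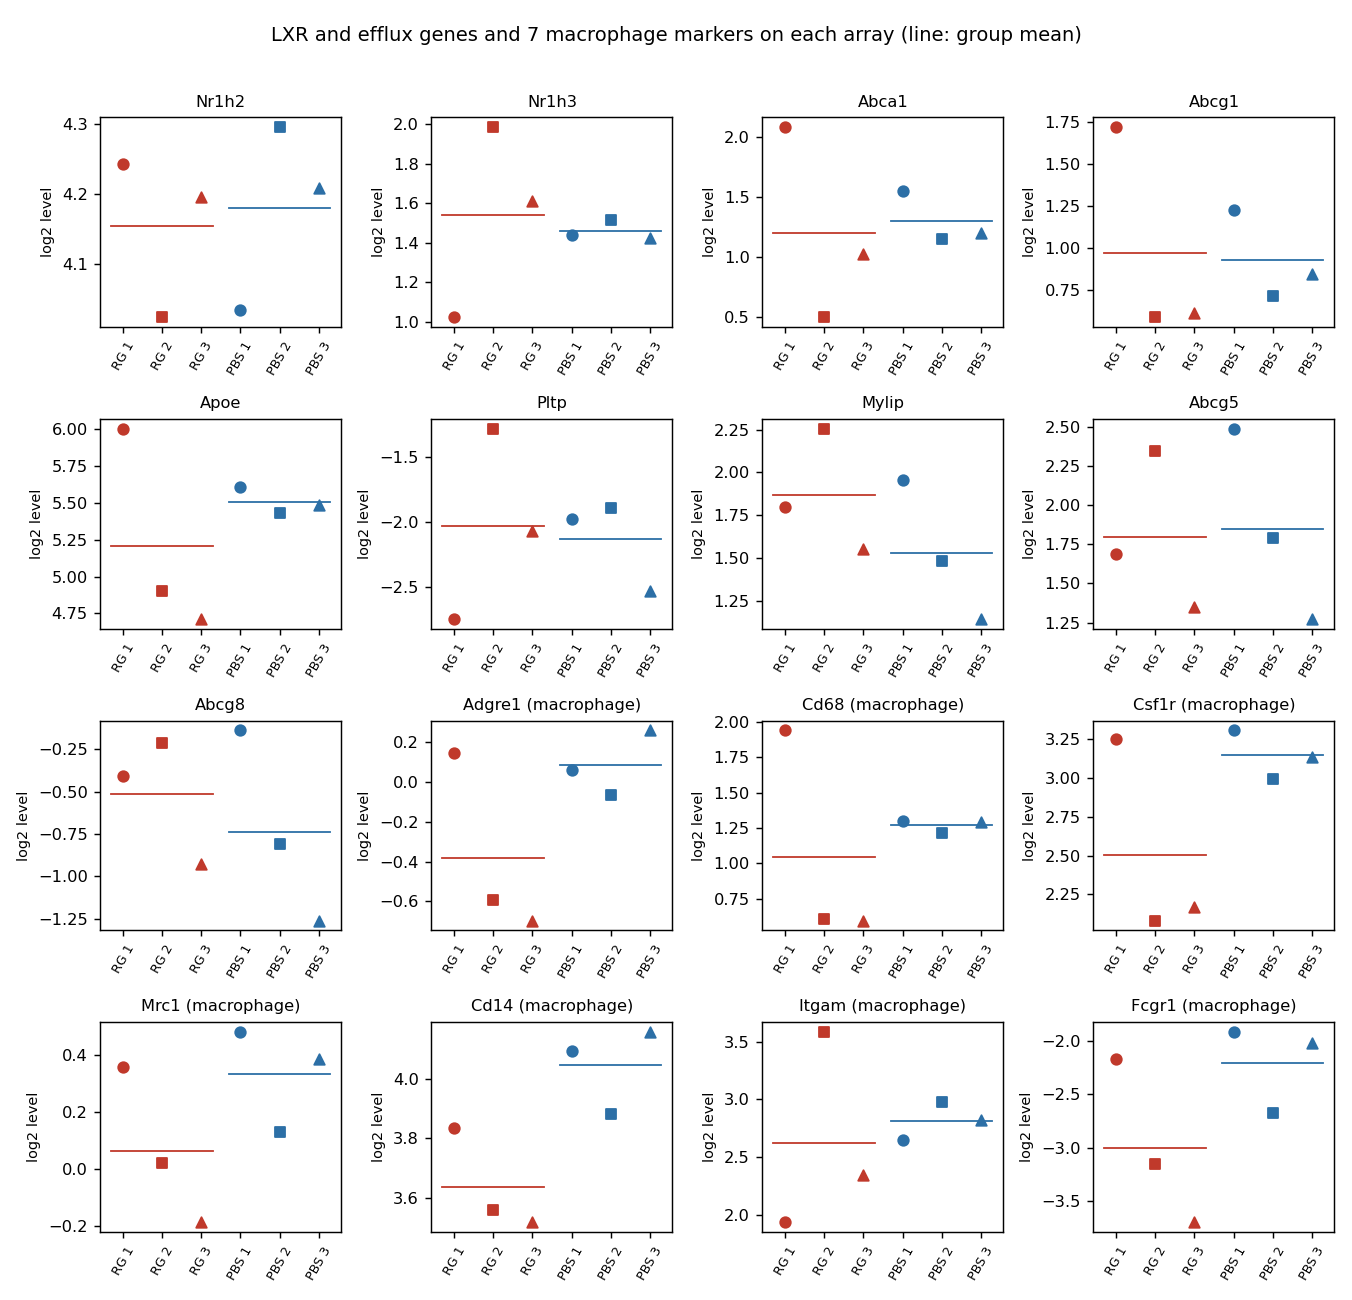
Log2 level on each of the 6 arrays for the 9 LXR and efflux genes and the 7 macrophage markers, 1 panel per gene, with RG@M-γ-CD red, PBS blue, the replicate number as the marker shape (1 circle, 2 square, 3 triangle) and the group mean as a line. RG 2 and RG 3 are the 2 lowest points for Abca1, Abcg1, Apoe and 6 of the 7 markers, while Abcg5, Abcg8 and Mylip are highest on RG 2 and PBS 1.

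The other LXR and efflux genes followed other arrays. Abcg5 read 1.68, 2.35 and 1.35 on RG arrays and 2.49, 1.79 and 1.27 on PBS arrays, and Abcg8, its partner, differed by 0.22. RG 2 and PBS 1 were the highest arrays for Abcg5, Abcg8 and Mylip, the LXR-induced ligase that degrades lipoprotein receptors, as they were for 10.3% of all genes. Mylip read 1.80, 2.26 and 1.56 on RG arrays and 1.95, 1.49 and 1.15 on PBS arrays, the highest mean difference of the module (0.34, SE 0.28, interval -0.33 to 1.01), with overlapping groups. Nr1h3, which encodes LXRα, read 1.02, 1.99 and 1.61 on RG arrays and 1.44, 1.51 and 1.42 on PBS arrays. RG 1 and RG 2 lay at the ends, and the difference was 0.08 (SE 0.26). Nr1h2, which encodes the widely expressed LXRβ, read 4.24, 4.02 and 4.20 on RG arrays and 4.03, 4.30 and 4.21 on PBS arrays, a difference of -0.03. Pltp, which transfers phospholipid among lipoproteins, read -2.75, -1.28 and -2.07 on RG arrays and -1.98, -1.89 and -2.53 on PBS arrays. RG 1 was lowest and RG 2 highest, and the difference was 0.10 (SE 0.39).

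All 4 genes listed as lipogenic, targets of SREBP-1c, LXR or both, had lower means on RG arrays, with a median of -0.10 and no gene past the test. Scd1, a desaturase that makes monounsaturated fat, read 2.60, 1.72 and 2.45 on RG arrays and 2.34, 2.46 and 2.37 on PBS arrays, a difference of -0.13 (SE 0.25). RG 2 alone lay below the other arrays. Fasn, the fatty acid synthase, read 7.05, 5.99 and 6.66 on RG arrays and 6.81, 6.92 and 6.75 on PBS arrays, a difference of -0.26 (SE 0.28). Its highest array and its lowest were both RG arrays. Scd2 and Lpcat3, which loads polyunsaturated chains into phospholipids, differed by -0.07 each.

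Within a role the same arrays were often the lowest. RG 2 or PBS 1 was the lowest array for 16 of the 17 synthesis enzymes, 8 each, and RG 2 was the lowest for all 4 lipogenic genes. Over all genes RG 2 or PBS 1 was lowest for 59.7%, and RG 2 alone for 36.7%. Centred on each gene's own mean, the median synthesis enzyme stood at -0.082, -0.19 and 0.11 on RG arrays and at -0.21, 0.19 and 0.17 on PBS arrays. The median LXR and efflux gene stood at 0.098, 0.41 and -0.23 on RG arrays and at 0.25, -0.034 and -0.11 on PBS arrays. By these medians RG 2 and PBS 1 were the low arrays for synthesis enzymes and the high arrays for LXR and efflux genes. The 9 LXR and efflux genes were split, though. RG 2 and PBS 1 were both highest for 3 of them, and RG 2 was lowest for another 3 (Nr1h2, Abca1 and Abcg1). For all genes the same medians were 0.057, -0.096 and 0.033 on RG arrays and -0.11, 0.070 and 0.037 on PBS arrays.

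**Figure D3:**
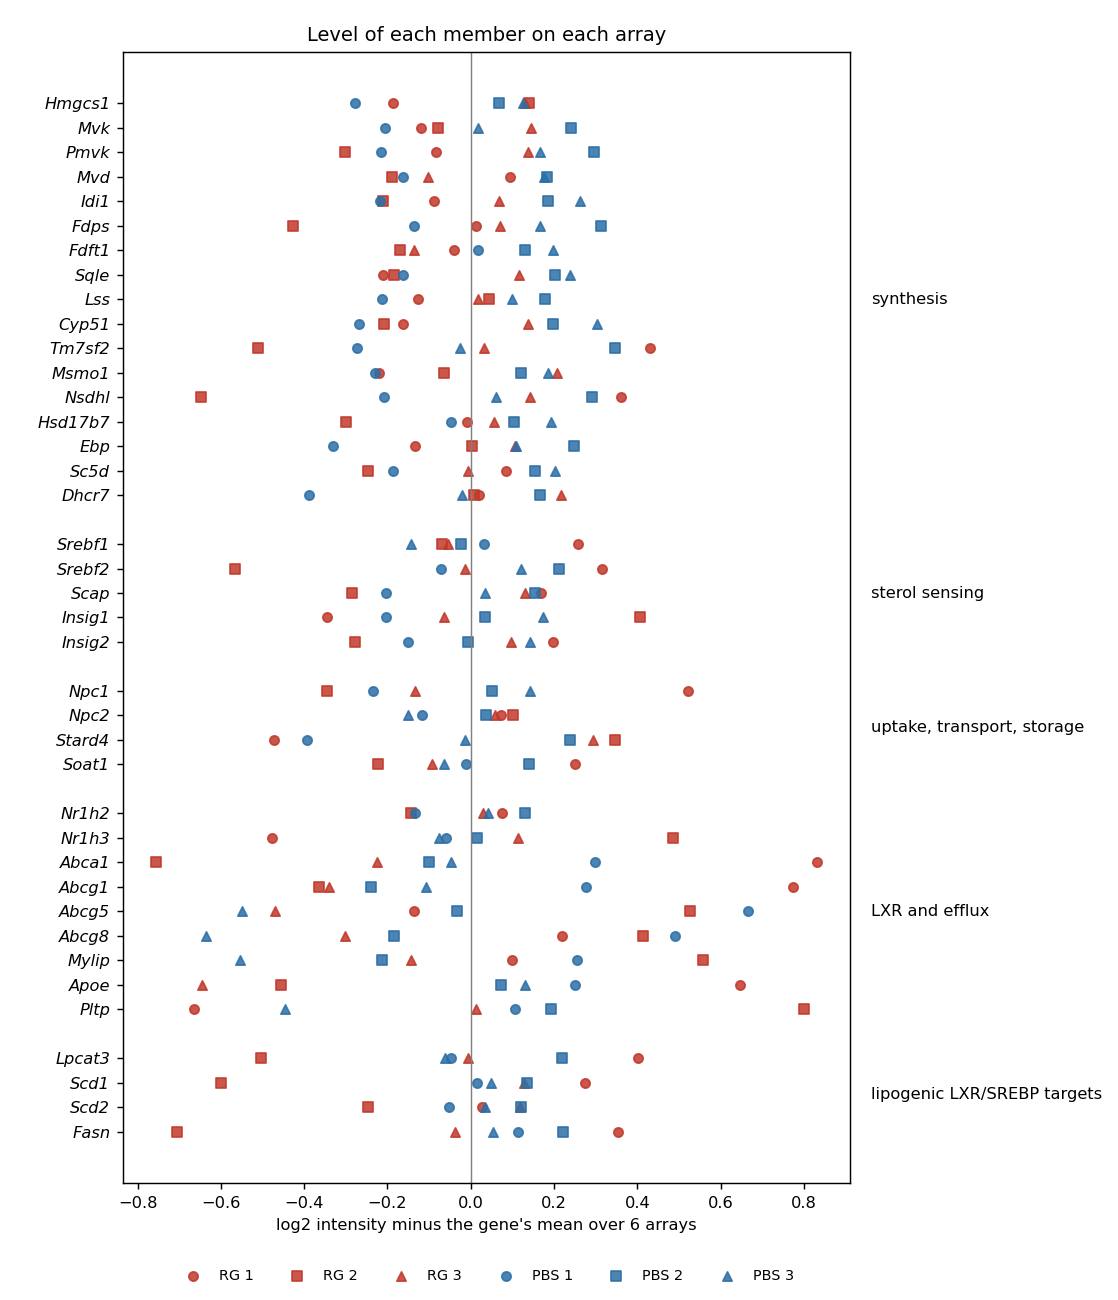
Log2 level minus the gene's mean over the 6 arrays on the horizontal axis for each of the 39 tested genes (rows, grouped by role), with 1 point per array, RG@M-γ-CD red, PBS blue, and the replicate number as the marker shape (1 circle, 2 square, 3 triangle). In the synthesis rows the red squares (RG 2) and blue circles (PBS 1) lie mostly to the left, with role medians of -0.19 and -0.21, and only the Fdft1 and Npc2 rows have no overlap of red and blue.

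Set out as right minus left (RG 2, RG 3 and PBS 1 minus RG 1, PBS 2 and PBS 3), all 17 synthesis enzymes were lower on the right, with a median of -0.19 and a range of -0.50 to -0.0049, beside a median of -0.116 for all genes. Most genes were lower on the right, 12308 of 19298 tested. None of the 39 passed adjustment (smallest adjusted p = 0.297 in limma), where 0.0259% of all genes did. At an unadjusted p below 0.05, 3 members were lower, where 8.79% of all genes were, and no member was higher, where 7.76% were. The 3 were Mvd (-0.30, SE 0.12), Tm7sf2 (-0.50, SE 0.20) and Npc1 (-0.48, SE 0.17). For Mvd the right arrays had a mean of 2.22 ± 0.04 (SD, n = 3) and the left arrays 2.52 ± 0.05 (SD, n = 3). In all, 5 genes were lower on every right array than on any left array (Mvd, Sc5d, Srebf2, Npc1 and Nr1h2), where 18.4% of all genes were, and none was higher on every right array, where 7.06% were. These shares of the members were no larger than those of all genes. The LXR and efflux genes had 5 higher and 4 lower on the right, with a median of 0.36 and a range from -0.57 for Apoe to 0.61 for Pltp. Sensing genes had a median of -0.22, uptake genes -0.094 and lipogenic genes -0.34. Srebf2 differed by -0.43 and a second probe of it by -0.40. Smooth muscle markers summed to 636 and 769 on RG 2 and RG 3 and to 97.6 on RG 1. PBS 1, the third right array, summed to 220, near the 188 and 210 of PBS 2 and PBS 3 on the left. All 6 smooth muscle markers had an unadjusted limma p below 0.05 and were higher on the right by mean, by 1.51 to 1.88. The smallest p was that of Actg2 (1.71), and 4 of the 6 were higher on every right array. The part of smooth muscle in the values of the members was not tested.

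Beside the tested probes, the members had 23 further probes with RefSeq accessions and 11 with other accessions (Ensembl transcripts or cDNA clones), all of them dimmer than the tested probe of the gene. Of the 11, 5 were not well above background on any array (1 each of Sqle, Npc1, Soat1, Nr1h2 and Scd1), and 1 of Hsd17b7 was well above it on 2 arrays only, with PBS 2 highest. The remaining 5, from Hmgcs1, Msmo1, Nsdhl and Npc1, were well above background on at least 5 arrays and are described here. Hmgcs1's probe of this kind read -4.35, -1.38 and -3.20 on RG arrays and -2.41, -4.53 and -4.05 on PBS arrays. RG 2 and PBS 1 were high, where the tested Hmgcs1 probe had PBS 1 as its lowest array. Msmo1 read -4.40, -1.93 and -3.21 on RG arrays and -2.64, -4.55 and -3.50 on PBS arrays with its probe of this kind, and Nsdhl -2.88, -0.81 and -2.26 against -1.21, -2.65 and -2.35. RG 2 and PBS 1 exceeded the other 4 arrays in 4 of these 5 probes, and in 0 of the 23 further RefSeq probes. As right minus left they differed by 1.98 for Hmgcs1, 1.56 for Msmo1, 1.20 for Nsdhl and 0.91 for the first of 2 for Npc1, while the second Npc1 probe differed by 0.00. Of all genes, 1915 had both kinds of probe well above background on all right or all left arrays, with the RefSeq probe the brighter. RG 2 and PBS 1 were the highest arrays for 53.8% of their dimmer probes and for 6.37% of their RefSeq probes. A dim probe can pass this filter through the right arrays, which include RG 2 and PBS 1, so the filter may raise the 53.8%. The pattern was not particular to sterol genes. What sets these probes apart was not tested, and levels of the 2 kinds of probe are not compared here.

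**Figure D4:**
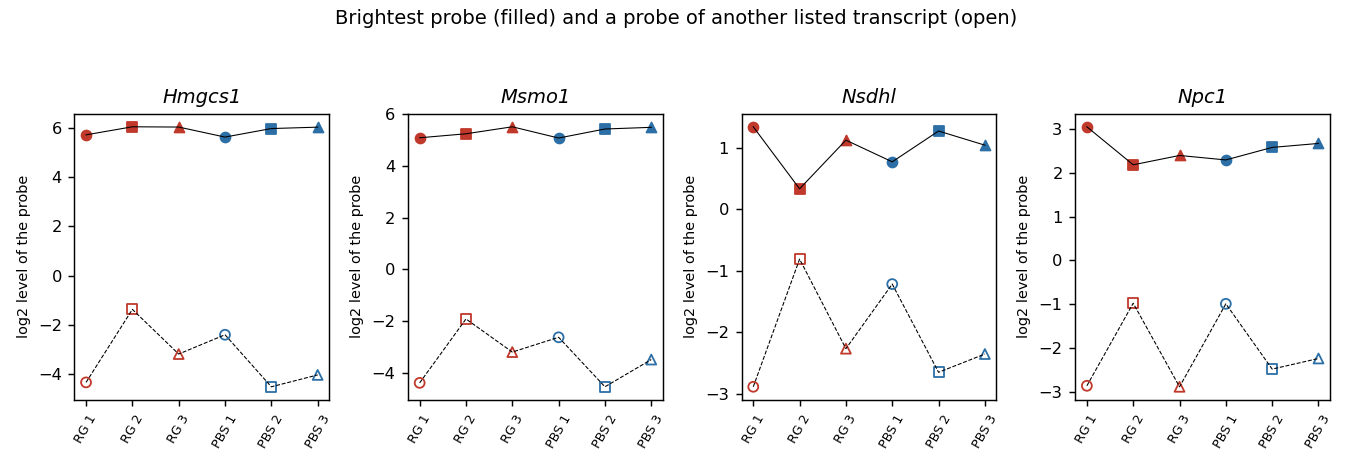
Log2 level on each array for Hmgcs1, Msmo1, Nsdhl and Npc1, 1 panel per gene, with the tested probe as filled points on a solid line and 1 dimmer probe of another listed transcript as open points on a dashed line, RG@M-γ-CD red and PBS blue. The open points are highest on RG 2 and PBS 1 in all 4 panels (at -1.38 and -2.41 for Hmgcs1), and the filled points are highest on both in none of them.

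Other genes of the same pathways also lay near 0 by label. Of 50 such genes in 6 lists, 44 were tested, 22 were higher and 22 lower, the median difference was -0.0043 and none had an unadjusted p below 0.05. Partners in synthesis and fatty acid supply had a median of -0.074 (4 higher, 7 lower), SREBP processing genes -0.010 (3 and 4), lysosome and storage genes 0.0024 (5 and 4) and LXR partners and further targets 0.048 (6 and 4). Receptors and lipoproteins (2 higher, 2 lower) had 0.12 and oxysterol and bile acid enzymes (2 higher, 1 lower) 0.030. As right minus left, 45 were tested and 3 had an unadjusted limma p below 0.05, none of them past adjustment. Of the 3, 1 was higher, where 7.76% of all genes were, and 2 were lower, where 8.79% were. These shares of the 45 were no larger than those of all genes. Me1, the malic enzyme that supplies NADPH for lipid synthesis, read 2.47, 1.33 and 2.03 on RG arrays and 1.29, 2.51 and 2.72 on PBS arrays. It was lowest on PBS 1 and RG 2 and differed by -1.02 as right minus left. Ggps1, which makes geranylgeranyl diphosphate at the branch after Fdps, differed by -0.34, and Rxrg, a partner receptor of the LXRs, by 1.47. Rxrg was well above background on 2 RG and 2 PBS arrays only and was not tested by label. It entered the right minus left comparison only through the right arrays, where it was high, so the 1.47 is a description. Its levels were -5.27, -2.74 and -2.52 on RG arrays and -4.06, -4.18 and -4.27 on PBS arrays.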

How the data were processed

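RNA of tumour-bearing colon from 6 mice was hybridised by the authors to one-colour Agilent mouse arrays (1 slide, 1 scan), and the deposited scanner files (Feature Extraction 10.7.1.1, probe positions on mm9) hold background-subtracted spot intensities. The deposited value table holds log2 values with equal column medians (4.83), read here as quantile-normalized, since its scale and centring are not stated. Spots marked as outliers (790 over the 6 arrays) were left out, log2 processed intensity was centred on each array's 75th percentile, and spots of a probe were averaged. Probes were named by RefSeq accession (32994 of 56605) or by the scanner name. A gene took its brightest probe well above background on all 3 arrays of a group. Differences were tested with limma 3.58.1 in R 4.3.3 and adjusted by Benjamini-Hochberg over all genes at 0.05, and the code was tested on simulated data. Per the methods each array is 1 mouse, and 3 arrays per group limit the precision. The members, lists and rules were chosen with earlier results of these data known. Values on every array are given for members with an unadjusted p below 0.05, separated groups or a log2 difference of at least 0.5 by either grouping, and for 9 members standing for their roles. Other genes were named after their values were seen. The 18 alternatives tried included other normalizations, filters, blocks and leaving out each array.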

Additional observations from a re-analysis of the deposited data

How the results depend on the processing

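No member passed the adjusted threshold under any of the 18 other settings, and no result past a test turned its direction, since none of the 39 genes was past one. By the methods' t-test, 1 member, Fdft1, had an unadjusted p below 0.05, where 2.0% of all genes did, and 0 members passed adjustment. With the slide row as a block, and likewise within the only row that held both groups, the medians became 0.16 for synthesis, 0.22 for uptake and -0.25 for LXR and efflux genes, and 21 of 39 members took the opposite sign, with the median of all genes at 0.097. That row held RG 1 to RG 3 and PBS 1 alone, so both settings set the RG arrays against that 1 PBS array, which was low for synthesis enzymes, and slide row and array cannot be told apart there. By the sides of the heat map, 5 genes in all passed adjustment and 3 members had an unadjusted p below 0.05, with medians of -0.22 for sensing, -0.094 for uptake and 0.36 for LXR and efflux genes. Leaving out each array in turn gave 0 to 168 genes past adjustment (168 without RG 1), 0 to 1 members with an unadjusted p below 0.05 (Apoe without RG 1) and 0 to 0 members past adjustment. The medians then ran from -0.23 to -0.054 for synthesis, -0.089 to 0.15 for sensing, -0.058 to 0.14 for uptake (-0.058 without PBS 1), -0.043 to 0.18 for LXR and efflux and -0.30 to 0.087 for lipogenic genes. Replicate numbers did not pair the arrays (correlations of same-numbered deviations -0.25, -0.23 and 0.14), and the replicate block gave 0 members past adjustment and a synthesis median of -0.11. Averaging all probes of a gene set Hmgcs1 at 0.37. The cause of these shifts was not tested. With 3 arrays per group, differences within the interval given for each gene remain compatible with the data. The LXR and efflux genes had the widest intervals.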

Other observations

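Of 3 exocrine pancreas markers tested as a check of the tissue, 2 were lower on every RG array than on any PBS array. Of all genes 2.19% were, and no gene passed adjustment by label. Both, Prss2 and Ctrb1, passed the background filter only through the PBS arrays, where they were high, so their separation was partly set by that filter. Prss2, a trypsinogen, read -6.93, -6.44 and -6.54 on RG arrays, where it was not well above background on any, and -3.05, -0.28 and -4.34 on PBS arrays. Ctrb1, a chymotrypsinogen, read -4.07, -4.75 and -4.13 on RG arrays and -3.98, 0.61 and -3.10 on PBS arrays. The third, Cela1, overlapped, at 6.02, 7.0 and 6.85 on RG arrays and 6.43, 6.77 and 6.17 on PBS arrays. The summed level of the list, 64.9 to 129 on RG arrays and 72.6 to 121 on PBS arrays, was mostly the signal of the Cela1 probe. Cela2a, Cpa1 and Pnlip were well above background on 0, 1 and 1 RG arrays and on 2 PBS arrays each and were not tested, and each was highest on PBS 2. Of the 6 small bowel enterocyte markers, Sis, Lct and Alpi were, like Npc1l1, not well above background on any of the 6 arrays. The other 3, Fabp2, Fabp6 and Apoc3, were well above it on all 6. Fabp2 read 1.88, 3.79 and 5.11 on RG arrays and 2.32, 4.34 and 4.44 on PBS arrays. The summed level of that list was 4.29 to 36.0 on RG arrays and 6.43 to 22.8 on PBS arrays. Adipocyte markers summed to 5.32 to 15.4 on RG arrays and 3.63 to 6.67 on PBS arrays, and hepatocyte markers to 6.30 to 14.8 and 6.82 to 12.1. Squamous markers summed to 10.8 to 20.9 on RG arrays and 18.2 to 24.7 on PBS arrays, and sebaceous gland markers to 17.3 to 26.3 and 16.5 to 31.4. The sebaceous sum was mostly the signal of the Mgst1 probe, and Awat1 and Elovl3 were not well above background on any array. Likewise, the adipocyte sum was mostly the signal of the Fabp4 probe. Plasma and B cell markers summed to 33.1 to 46.9 on RG arrays and 24.5 to 37.0 on PBS arrays, and proliferation genes to 38.8 to 72.4 and 52.8 to 62.7, with none of the 6 proliferation genes higher on RG arrays by mean.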
